A study of Mus musculus with 10 samples.

Results

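The genes described here are those that differed, after an injection of CpG, between dendritic cells (DCs) of mice lacking 2 complement receptors and DCs of wild-type (WT) mice. The comparison took the 3 arrays of C3ar1-/-C5ar1-/- (DRKO) DCs after CpG and the 3 arrays of WT DCs after CpG, that is 6 of the 10 arrays of the study, chosen by their labels and described across all genes. Mice of both genotypes had received 100 µg CpG, and their splenic CD11c+ cells were taken 4 h later with Miltenyi magnetic beads. The other 4 arrays held the same cells after vehicle, 2 from WT and 2 from DRKO mice, and served as the measure of the genotype difference at rest. Both receptors were missing from every cell of the DRKO mice and not from DCs alone, as far as the genotype in the labels says. The labels give no strain, sex or age, and do not say whether an array held 1 mouse or a pool, so p-values measure the spread between these samples, which may be partly technical. RNA was hybridised to arrays (Affymetrix, Mouse Gene 2.0 ST), 1 per sample, and values are log2 intensities, so a difference of 1 is a doubling. The small number of arrays limits the precision of every value.

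C3ar1 and C5ar1 are receptors for C3a and C5a, the anaphylatoxins, small peptides released when complement is activated. Both couple to inhibitory G proteins, which lower cyclic AMP and engage PI3K and MAP kinase signalling in myeloid cells. CpG is unmethylated DNA that the endosomal receptor Tlr9 recognises. In DCs it starts a program of cytokines, type I interferon and interferon-stimulated genes, and raises the costimulatory molecules by which DCs activate T cells.

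The arrays had nearly equal medians over all probe sets, 5.50 to 5.56 on the log2 scale. C3ar1 read 6.14, 6.31 and 6.59 on the WT CpG arrays and 5.61, 5.55 and 5.34 on the DRKO CpG arrays, and C5ar1 read 6.64, 7.32 and 5.51 against 4.99, 4.72 and 4.74. Neither gene overlapped between the genotypes, and neither passed the test (C3ar1, -0.85 ± 0.15 (SE), adjusted p = 0.0611; C5ar1, -1.67 ± 0.35, adjusted p = 0.0732). C5ar1 lay below the array medians on all DRKO CpG arrays and on WT CpG 3, and C3ar1 on DRKO CpG 3. Both differences may thus be bounded by background. Whether the probes of these 2 genes lie in the deleted part is not given in the sources used here. Arrays stood apart in 3 ways that touch the results. The mean of the Y-linked genes was 7.75 and 7.33 on DRKO CpG 1 and 2 and between 3.40 and 3.68 on the other 4 CpG arrays, where Xist read at least 10.4. Without both arrays that carry this signal, DRKO CpG 3 alone stands for DRKO DCs after CpG. The mean of 27 neutrophil marker genes, each set against its own mean over the 10 arrays, was 1.27, 1.54 and 0.20 on the WT CpG arrays and 0.24, -0.09 and -1.08 on the DRKO CpG arrays. The same mean of 25 red pulp macrophage markers was -1.18 on DRKO CpG 3 and 0.10 to 0.32 on the other 5. In bulk samples, fewer cells of a type and less RNA per cell cannot be told apart. Of the markers of the labelled cell, Itgax, which encodes CD11c, read 10.7 to 11.6 and Flt3, the receptor for the DC growth factor Flt3 ligand, 9.79 to 10.3 over the 6 arrays.

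Of 13371 genes tested, 16 passed an adjusted p of 0.05 between DRKO and WT after CpG, a share of 0.12%. In DRKO DCs, 7 were higher (0.0524%) and 9 lower (0.0673%). They included the myeloid receptor gene Tarm1, the paired immunoglobulin-like receptor gene Pirb and Gm15448, a predicted gene of the cluster of Pirb. Cytokine receptors (Il2ra and Il23r lower, Ifngr1 higher), the kinase gene Mapk14 and 2 stefin genes were also among them. Without the adjustment, 1918 genes (14.3%) had a p under 0.05, 1138 higher (8.51%) and 780 lower (5.83%). The 3 DRKO and 3 WT values did not overlap for 2566 genes (19.2%), 1553 higher (11.6%) and 1013 lower (7.58%). The median difference over all genes tested was 0.01. In the comparison at rest, which shares no array with this one, Gm15448 alone passed (0.00748%) and 619 genes (4.63%) had an unadjusted p under 0.05.

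**Figure D1:**
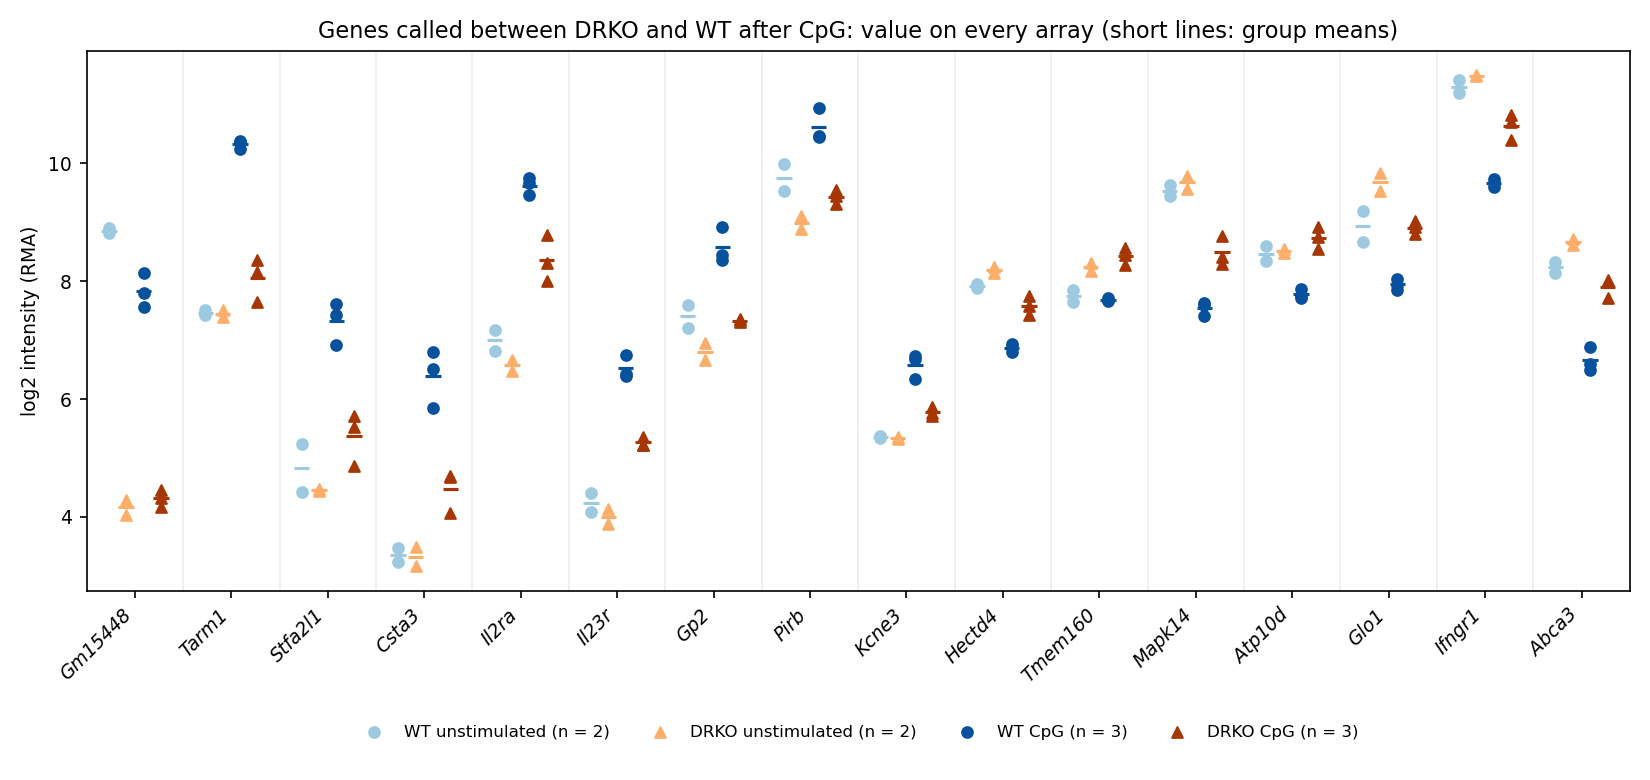
Log2 intensity of each of the 16 genes that passed the test, on all 10 arrays, with short lines for the group means (circles, WT; triangles, DRKO; light, unstimulated; dark, CpG). The dark circles and dark triangles do not overlap for any of the 16 genes, and Tarm1 is the gene in which both unstimulated groups sit together near 7.5 while the WT CpG arrays lie above 10.2.

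Tarm1 encodes an activating receptor of myeloid cells that signals through the Fc receptor gamma chain and engages T cells. It read 10.4, 10.4 and 10.3 on the WT CpG arrays and 8.16, 7.64 and 8.36 on the DRKO CpG arrays. The lowest WT value was above the highest DRKO value by more than the whole spread within either genotype. The difference was -2.27 ± 0.16, that is 4.83-fold lower in DRKO DCs (adjusted p = 2.64e-04). Without stimulation the genotypes read alike, 7.51 and 7.43 in WT and 7.51 and 7.39 in DRKO, with a difference of -0.02 ± 0.20. Tarm1 was the single gene of 13371 (0.00748%) whose genotype difference itself differed between CpG and rest (-2.25 ± 0.26, adjusted p of the interaction = 0.049), against 756 genes (5.65%) with an unadjusted p under 0.05. The interaction was called in 2 of 10 fits that left out 1 array (without DRKO CpG 2, adjusted p = 0.0081, or DRKO CpG 3, 0.00988) and lost in the other 8, with differences from -2.40 to -2.05 and adjusted p up to 0.621. It was also lost in 4 of 12 other settings, with the title series (explained with the counts of called genes) as a block (adjusted p = 0.0669), without the arrays that carry Y-linked signal (0.0914), with the neutrophil level as a covariate (0.0563) and after quantile normalization (0.0524). CpG raised Tarm1 by 2.86 in WT DCs (adjusted p = 3.46e-05), while its difference in DRKO DCs was 0.60 (adjusted p = 0.0606). These CpG effects share arrays with the comparison of genotypes and are set side by side only. Tarm1 was called in all 10 fits that left out 1 array and in the 13 other settings with a test, with differences from -2.46 to -1.97, and read -1.89 in the second series of sample titles, where 1 array per genotype allows no test.

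Pirb, the inhibitory receptor of the paired immunoglobulin-like family and a binder of MHC class I, read 10.4, 10.5 and 10.9 in WT and 9.54, 9.30 and 9.45 in DRKO after CpG. All 3 DRKO values were below all WT values (-1.18 ± 0.17, adjusted p = 0.0341). At rest the difference was -0.76 ± 0.20 and did not pass (adjusted p = 0.862). Gm15448, a predicted gene of the same cluster that falls outside the rule for naming and was chosen after its values were seen, read 8.13, 7.55 and 7.80 in WT and 4.46, 4.33 and 4.16 in DRKO. The DRKO values lay below the array medians, so the difference of -3.51 ± 0.15 (adjusted p = 3.81e-06) may be bounded by background. The difference was also present at rest, 8.81 and 8.90 in WT against 4.30 and 4.03 in DRKO (-4.69 ± 0.19, adjusted p = 1.56e-06). Genes of this cluster are near-identical in parts, and some probe sets are assigned to several of them, so the value of Gm15448 is uncertain as to which gene it reads. The list of paired immunoglobulin-like receptors is broader than that family. It also holds Tarm1, Siglec, Trem, Sirp and Cd300 genes, Fc receptors and the adaptors Tyrobp and Fcer1g. Of its 28 tested members, Tarm1 and Pirb passed, and 20 of 28 differences were below 0, against 47.2% of all genes, with a median of -0.22. DRKO CpG 3 was the lowest of the 6 arrays for 15 of the 28, and without it the median was -0.01. The median was 0.01 within the first title series and 0.03 with the neutrophil level as a covariate, and -0.25 with Y-linked signal as a covariate. Trem1, an activating receptor of neutrophils and monocytes, read 8.98, 9.77 and 7.36 in WT and 7.86, 7.76 and 6.38 in DRKO, which overlapped (-1.37 ± 0.55, adjusted p = 0.295).

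The upstream windows of Pirb and Gm15448 are shown because both genes were lower and lie close together. The sequences are from RefSeq (build GRCm38.p6) and lie within the 250 bases before the gene start, on the minus strand, with the letters GAGGAAGT, a site of the myeloid factor PU.1, in capitals.
Gm15448 (chr7:3825761-3825860): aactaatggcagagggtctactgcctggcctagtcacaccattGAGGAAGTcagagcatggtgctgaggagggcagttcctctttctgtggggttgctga
Pirb (chr7:3720423-3720522): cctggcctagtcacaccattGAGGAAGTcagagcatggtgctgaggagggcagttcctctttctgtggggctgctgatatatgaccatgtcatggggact
The windows share a run of 70 identical bases that contains the match. On either strand, GAGGAAGT occurred in 802 of 32851 windows (2.44%), in 3.03% of those of tested genes and in 3 of the 15 called genes with a window (Hectd4 being the third). The matches of Pirb and Gm15448 lie in the same shared run and are not separate occurrences, and Hectd4 was higher in DRKO. The count of 3 is therefore not comparable with these shares. A match is a description of the letters and not of binding.

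Of the 16 called genes, 6 lay on chromosome 7, which holds 8.06% of the genes tested, and 3 on chromosome 17, which holds 5.23%. On chromosome 7 these were Tarm1, Pirb, Gm15448, Gp2, Kcne3 and Tmem160. C5ar1 lies on chromosome 7 too, with 5 protein-coding genes between it and Tmem160 and 218 between it and Tarm1. Tmem160 read 7.71, 7.66 and 7.67 in WT and 8.56, 8.28 and 8.44 in DRKO (0.74 ± 0.11, adjusted p = 0.0440), with 0.50 ± 0.13 at rest (adjusted p = 0.862). The part of chromosomal position in these differences was not tested.

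Among cytokine receptors, Il2ra, the alpha chain of the IL-2 receptor and a marker of activated DCs, read 9.45, 9.67 and 9.74 in WT and 8.78, 7.996 and 8.31 in DRKO (-1.26 ± 0.19, adjusted p = 0.0440). Every DRKO value was below every WT value. CpG raised it in both genotypes, by 2.62 in WT (adjusted p = 6.46e-05) and by 1.79 in DRKO (adjusted p = 0.001). Il23r, the specific chain of the IL-23 receptor, read 6.397, 6.74 and 6.42 in WT and 5.35, 5.22 and 5.22 in DRKO (-1.25 ± 0.14, adjusted p = 0.00784). CpG raised it by 2.28 in WT and 1.26 in DRKO, with adjusted p = 3.81e-05 and 0.00118. On the DRKO CpG arrays Il23r lay below the array medians, so its differences may be bounded by background. Ifngr1, the ligand-binding chain of the interferon gamma receptor, went the other way and read 9.73, 9.59 and 9.67 in WT against 10.4, 10.8 and 10.7 in DRKO (0.97 ± 0.13, adjusted p = 0.0225). After CpG it fell by 1.64 in WT and dropped by 0.85 in DRKO (adjusted p = 7.54e-05 and 0.0054), and after CpG it was 1.96-fold higher in DRKO DCs. At rest the genotypes differed by -0.43, -0.24 and 0.18 for Il2ra, Il23r and Ifngr1, and none passed.

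The other genes higher in DRKO DCs were Abca3, Atp10d, Mapk14, Glo1 and Hectd4. Abca3, a lipid transporter of lysosome-related organelles, read 6.60, 6.49 and 6.88 in WT and 7.71, 8.02 and 7.99 in DRKO (1.25 ± 0.13, adjusted p = 0.00784), the largest rise of the 7. Mapk14, which encodes a p38 stress kinase, read 7.60, 7.63 and 7.41 in WT and 8.29, 8.41 and 8.77 in DRKO (0.94 ± 0.14, adjusted p = 0.0440). The genotypes were apart on all 6 arrays for both genes. Both were lowered by CpG in each genotype, Abca3 by -1.58 in WT and -0.76 in DRKO and Mapk14 by -1.99 and -1.19 (adjusted p at most 0.0121). Atp10d, a phospholipid flippase, read 7.87, 7.72 and 7.74 in WT and 8.55, 8.75 and 8.91 in DRKO (0.96 ± 0.12, adjusted p = 0.0225), with a difference of 0.05 at rest. Glo1, which detoxifies methylglyoxal from glycolysis, read 8.04, 7.94 and 7.86 in WT and 8.91, 8.79 and 9.02 in DRKO (0.96 ± 0.15, adjusted p = 0.0482) and differed by 0.76 ± 0.18 at rest without passing. Hectd4, a predicted ubiquitin ligase gene, read 6.79, 6.88 and 6.93 against 7.43, 7.58 and 7.74 (0.72 ± 0.11, adjusted p = 0.0459). On chromosome 17, 26 protein-coding genes lie between Glo1 and Mapk14. Btbd9, the protein-coding gene next to Glo1, was chosen after its values were seen. It differed by 0.56 ± 0.10 after CpG (adjusted p = 0.0623) and by 0.56 ± 0.13 at rest (adjusted p = 0.757), without passing.

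The remaining genes lower in DRKO DCs were Gp2, Kcne3, Csta3 and Stfa2l1. Gp2, a glycosylphosphatidylinositol-anchored receptor for bacterial fimbriae, read 8.35, 8.45 and 8.92 in WT and 7.35, 7.30 and 7.34 in DRKO (-1.24 ± 0.16, adjusted p = 0.0247). Kcne3, a regulatory subunit of potassium channels, read 6.72, 6.69 and 6.34 against 5.87, 5.71 and 5.76 (-0.80 ± 0.12, adjusted p = 0.0440), with -0.02 at rest. The WT and DRKO arrays were again fully apart. Csta3 and Stfa2l1 encode stefins, inhibitors of cysteine proteases that neutrophils express highly, and both were members of the neutrophil list. Csta3 read 6.79, 6.52 and 5.85 in WT and 4.70, 4.07 and 4.68 in DRKO (-1.90 ± 0.24, adjusted p = 0.0225). Stfa2l1 read 7.43, 7.60 and 6.92 against 5.53, 5.71 and 4.87 (-1.95 ± 0.26, adjusted p = 0.0277). Csta3 lay below the array medians on the DRKO CpG arrays, as did Stfa2l1 on DRKO CpG 1 and 3. Both differences may thus be bounded by background. Stefin genes are close copies of each other, so these values may be shared among them.

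Of the 27 neutrophil markers tested, Csta3 and Stfa2l1 passed and 15 (55.6%) had an unadjusted p under 0.05, all lower in DRKO, against 5.83% of all genes. The median difference was -1.37 after CpG and -0.91 at rest. Retnlg, a granule and secreted protein of neutrophils, read 8.91, 9.90 and 7.53 in WT and 6.64, 5.93 and 4.41 in DRKO (-3.12 ± 0.61, adjusted p = 0.0679). Mmp8, the neutrophil collagenase, read 8.94, 9.84 and 7.12 against 6.95, 6.13 and 4.93 (-2.63 ± 0.62, adjusted p = 0.0953). Retnlg and Mmp8 lay below the array median on DRKO CpG 3, so their differences may be bounded by background. WT CpG 2 was the highest of the 6 arrays for 21 of the 27 genes and DRKO CpG 3 the lowest for 20. With 1 CpG array left out the median ranged from -2.04 (without WT CpG 3) to -0.82 (without DRKO CpG 3). With the neutrophil level of each array as a covariate, 4 of the 16 genes still passed, namely Gm15448 (-3.37), Tarm1 (-2.37), Gp2 (-1.58, adjusted p = 0.0356) and Pirb (-1.49, adjusted p = 0.0497). The other 12 kept the sign of their difference. Csta3 and Stfa2l1, among these 12, are part of that level, so their loss comes in part from their own values.

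**Figure D2:**
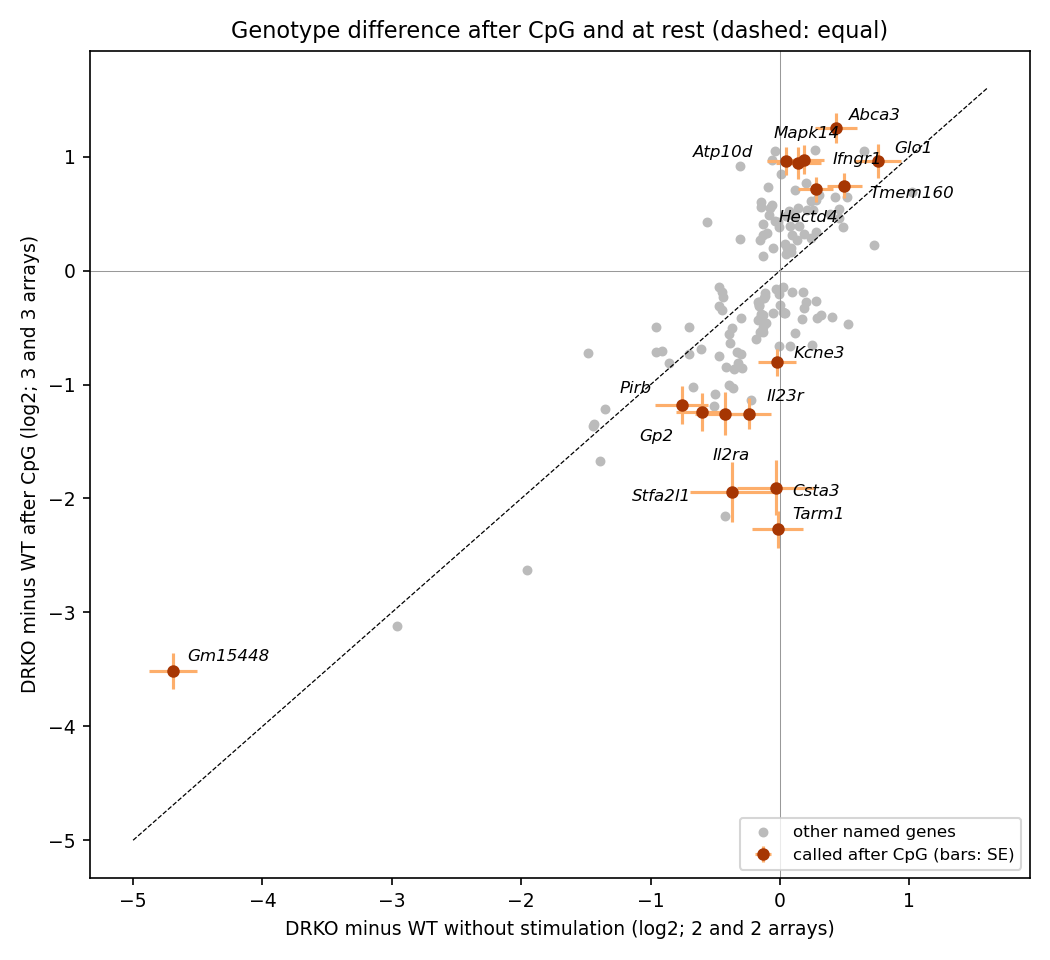
Genotype difference (DRKO minus WT, log2) after CpG on the vertical axis against the difference without stimulation on the horizontal axis, for the named genes apart from Xist and the Y-linked genes; the 16 called genes carry SE bars and names, and the dashed line marks equal differences. Tarm1, Csta3 and Kcne3 lie near 0 at rest and below 0 after CpG, while Gm15448 is far below 0 in both.

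After the 16 genes, the smallest p-values belonged to Hpn, Gm1965, Plxdc1 and Inpp5d, all with an adjusted p of 0.0572. Inpp5d encodes SHIP1, the phosphatase that opposes PI3K in blood cells, and read 8.82, 8.68 and 8.83 in WT and 9.39, 10.05 and 10.04 in DRKO (1.05 ± 0.17). Its DRKO values were all above its WT values, and the difference at rest was -0.04.

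The costimulation and maturation list held the activation markers of DCs. Of its 31 tested members, Il2ra passed, 18 (58.1%) had an unadjusted p under 0.05, all lower in DRKO, against 5.83% of all genes, and 18 did not overlap in that direction, against 7.58%. The median difference was -0.36 after CpG and -0.16 at rest. Slamf1, a self-binding receptor of activated leukocytes, read 9.70, 10.04 and 10.05 in WT and 8.64, 8.92 and 8.48 in DRKO (-1.25 ± 0.24, adjusted p = 0.0643). Tnfrsf9, a costimulatory receptor of the TNF receptor family, read 8.85, 9.33 and 8.84 against 8.45, 8.13 and 7.85 (-0.86 ± 0.17, adjusted p = 0.0694). Ly75, an endocytic receptor of DCs, differed by -0.60 ± 0.12 (adjusted p = 0.0686). These genes were lower on every DRKO array, though none of the 3 passed. Among the classical molecules, Cd40 read 11.5, 11.4 and 11.4 in WT and 11.1, 10.8 and 10.98 in DRKO (-0.46 ± 0.19, adjusted p = 0.315). Cd86 differed by -0.19 ± 0.10 and Cd274, which encodes the ligand PD-L1, by -0.28 ± 0.10, both without overlap. Cd80 overlapped between the genotypes (-0.14 ± 0.12). Ccr7, the receptor that guides DCs to lymph nodes, read 11.5, 11.8 and 11.6 against 11.4, 11.1 and 11.1 (-0.43 ± 0.13, adjusted p = 0.159). When 1 CpG array at a time was left out, 12 to 18 of the 31 genes had an unadjusted p under 0.05, all lower. With the neutrophil level as a covariate it was 10 and with Y-linked signal as a covariate 17, again all lower. Of all 13371 genes, 663 and 1413 were lower in these fits.

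**Figure D3:**
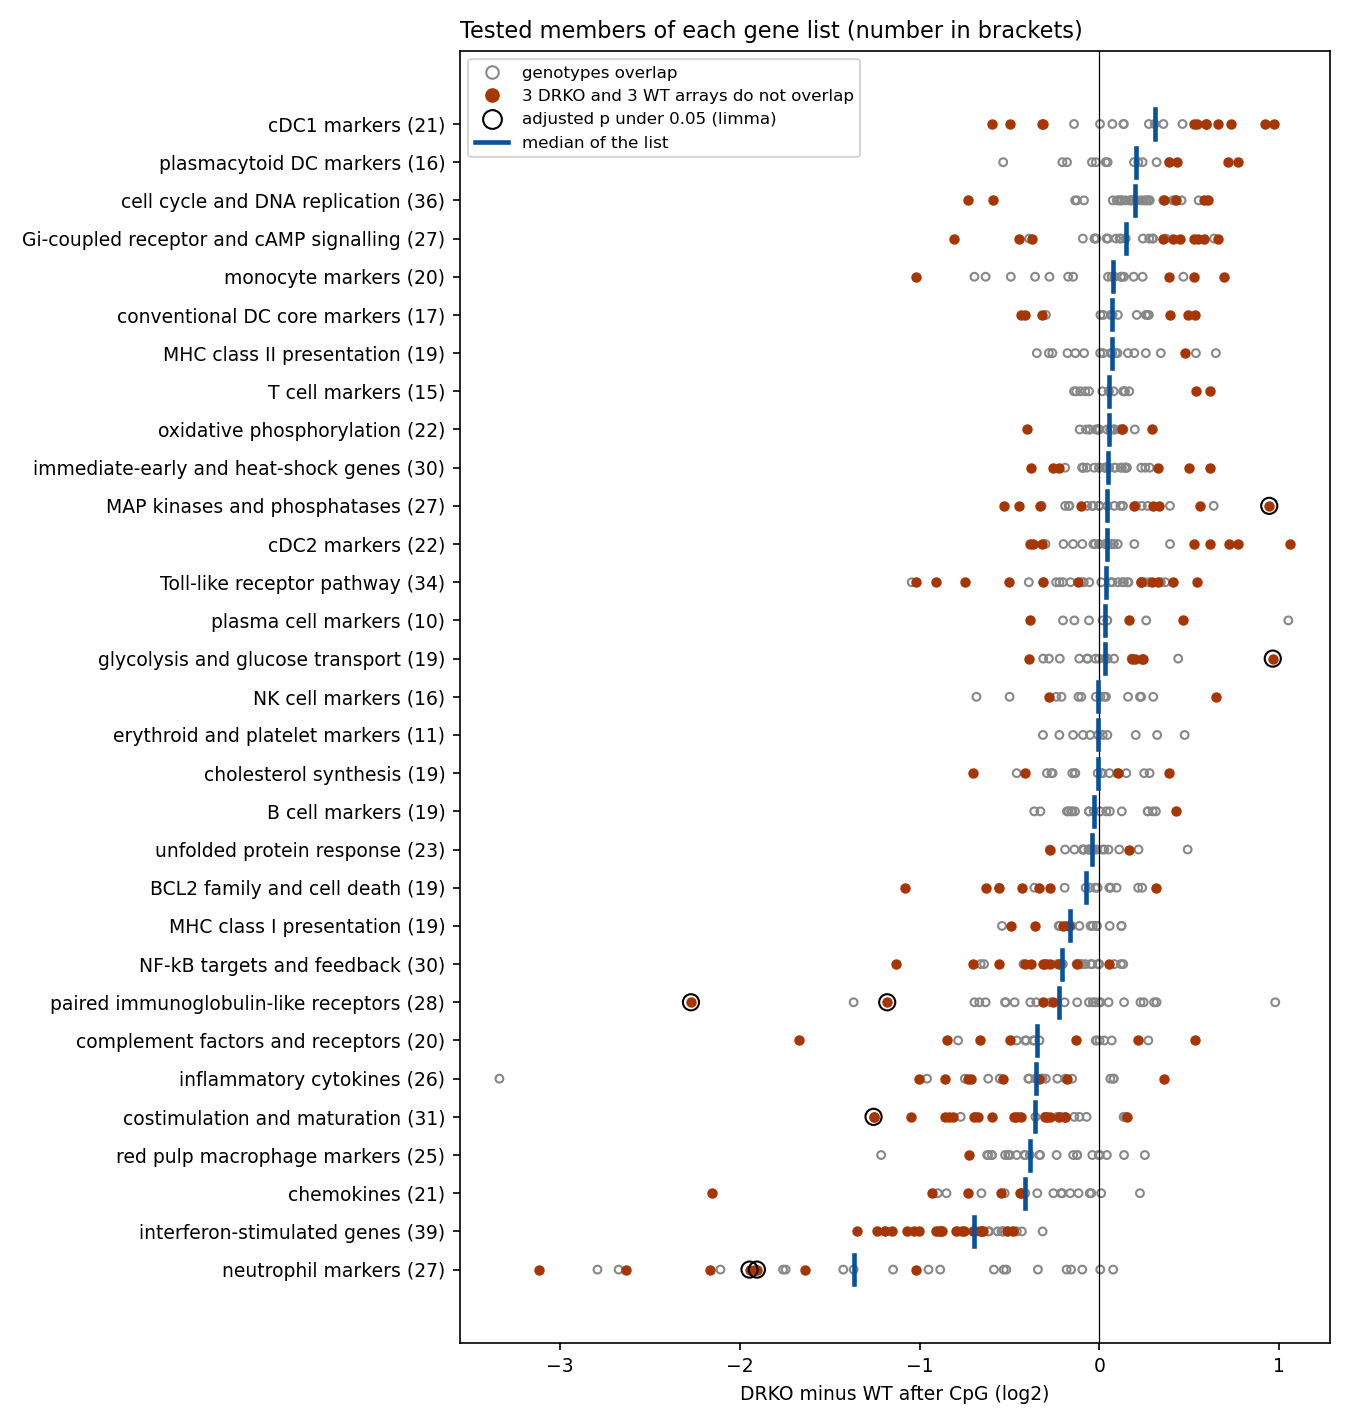
Difference between DRKO and WT after CpG (log2, horizontal axis) of every tested member of 31 gene lists, ordered by list median (blue bar); filled points are genes whose 3 DRKO and 3 WT arrays do not overlap and black rings mark genes that passed the test. All 39 interferon-stimulated genes lie below 0, and black rings are found in 5 lists.

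Apart from the 4 genes of the Y-linked and Xist list, interferon-stimulated genes were the list with the largest share of low p-values. None of the 39 tested members passed (smallest adjusted p = 0.0716). All 39 differences were negative, from -1.35 to -0.32, 28 (71.8%) had an unadjusted p under 0.05 and 21 did not overlap, against 5.83% and 7.58% of all genes. The median was -0.70 after CpG and -0.16 at rest. Ifi204, a DNA-binding protein of the innate response, read 10.1, 10.3 and 10.7 in WT and 9.66, 8.37 and 8.94 in DRKO (-1.35 ± 0.28). Oas3, an antiviral oligoadenylate synthetase, read 8.79, 9.03 and 9.44 against 8.33, 7.10 and 8.24 (-1.19 ± 0.29, adjusted p = 0.102). Isg15, a ubiquitin-like modifier, read 11.8, 11.6 and 11.6 against 11.2, 9.85 and 10.8 (-1.03 ± 0.29, adjusted p = 0.137). In all 3 genes DRKO CpG 2 was the lowest array. Over the list it was the lowest of 6 for 38 of 39 genes, and WT CpG 3 was the highest for 37. The median level of the list was 10.04, 9.95 and 10.4 on the WT arrays and 9.66, 8.24 and 9.55 on the DRKO arrays. Without DRKO CpG 2 the median difference was -0.39 and 12 of 39 had an unadjusted p under 0.05. In that case 21 did not overlap (53.8%, against 10.8% of all genes). Without WT CpG 3 the median difference was -0.58, and 8 had such a p. With the neutrophil level as a covariate the median difference was -1.11 and 34 had such a p. With Y-linked signal as a covariate it was -0.53 and 10 had such a p, against 1413 of all 13371 genes lower. Without the arrays that carry that signal it was -0.44.

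The upstream windows of 3 of these genes are shown because each holds the core of the interferon-stimulated response element; Gbp5, a guanylate-binding protein, was chosen after its values were seen (-1.004 ± 0.28). The capitals mark matches to that core on either strand, overlapping matches joined, in 100 bases upstream of the gene start (RefSeq, GRCm38.p6). The stretches of Oas3 and Isg15 end at the gene start, and that of Gbp5 ends 85 bases before it.
Oas3 (chr5:120777660-120777759, minus strand): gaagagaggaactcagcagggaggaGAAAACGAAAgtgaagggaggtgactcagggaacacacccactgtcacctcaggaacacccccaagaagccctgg
Isg15 (chr4:156200819-156200918, minus strand): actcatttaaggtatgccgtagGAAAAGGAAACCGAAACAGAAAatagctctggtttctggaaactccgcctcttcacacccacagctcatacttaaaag
Gbp5 (chr3:142496749-142496848, plus strand): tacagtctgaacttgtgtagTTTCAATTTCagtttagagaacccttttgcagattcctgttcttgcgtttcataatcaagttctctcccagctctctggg
Within 250 bases, on either strand, the core occurred in 14 of the 28 interferon-stimulated genes with a window (50.0%), in 348 of 10478 tested genes (3.32%) and in 978 of 32851 windows (2.98%). It was in none of 20 costimulation genes and in 1 of 15 called genes, Mapk14. A kB site, the element that NF-kB binds, occurred in 0.356% of windows, in none of the called genes and in Gbp5 among the interferon-stimulated genes.

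**Figure D4:**
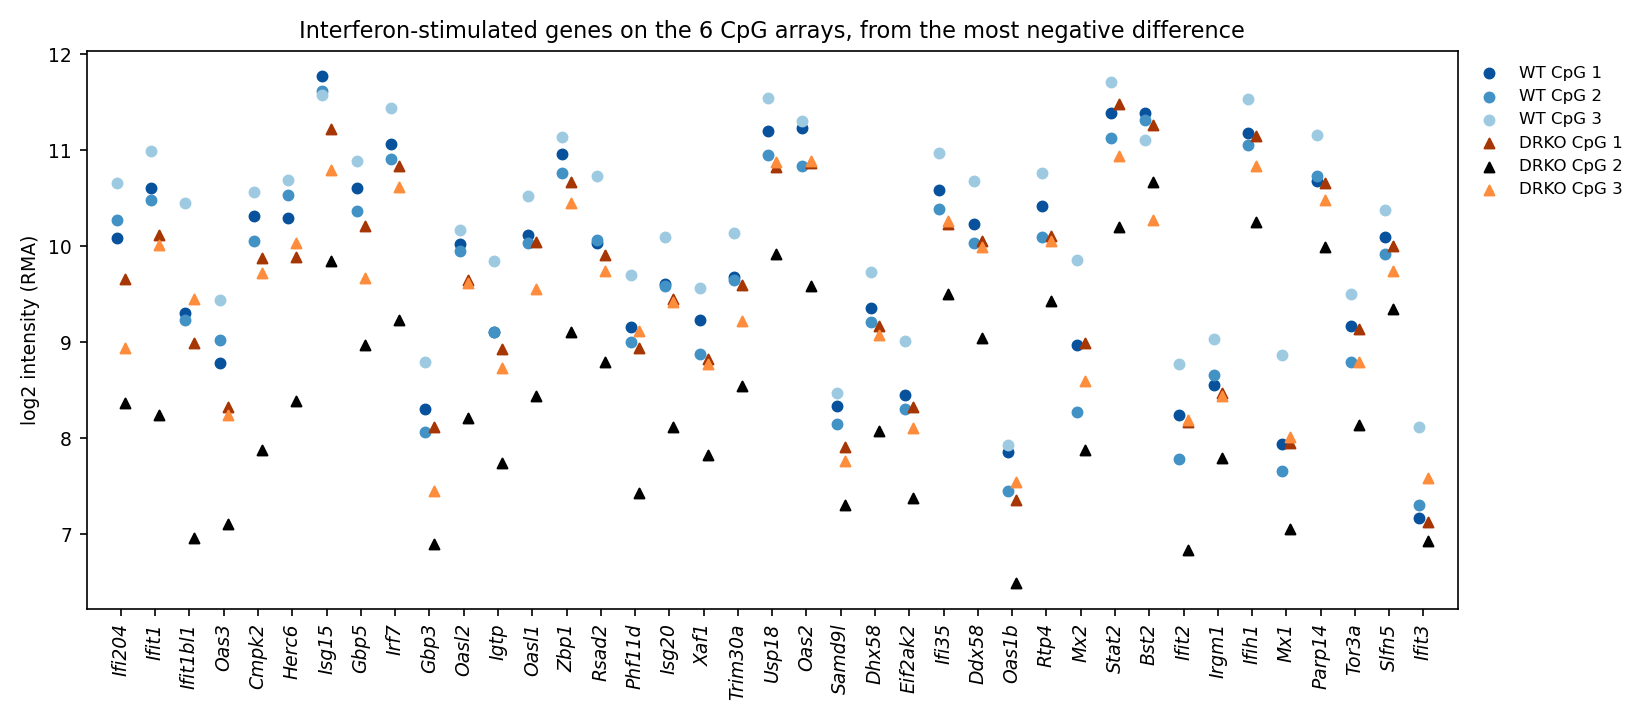
Log2 intensity of the 39 interferon-stimulated genes on the 6 CpG arrays (circles, WT; triangles, DRKO), ordered from the most negative difference. The black triangles, DRKO CpG 2, are the lowest points for 38 of 39 genes, and DRKO CpG 1 and 3 lie nearer to the WT arrays.

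Of 26 inflammatory cytokine genes, none passed, 8 (30.8%, against 5.83% of all genes) were lower and 1 higher with an unadjusted p under 0.05, and the median was -0.35 both after CpG and at rest. Ebi3 and Il27, the subunits of IL-27, were lower on all DRKO arrays, at 8.40, 8.51 and 8.39 against 7.75, 7.86 and 8.07 for Ebi3 (-0.54 ± 0.11, adjusted p = 0.0732) and 10.02, 10.2 and 10.4 against 9.75, 9.28 and 9.04 for Il27 (-0.86 ± 0.20, adjusted p = 0.0907). Il15, a cytokine for NK and memory T cells, differed by -1.003 ± 0.24 (adjusted p = 0.0968) and Il1rn, the IL-1 receptor antagonist, by -0.71 ± 0.17 (adjusted p = 0.0927). Il6 read 9.12, 9.15 and 8.72 in WT and 8.67, 8.14 and 7.99 in DRKO (-0.73 ± 0.24, adjusted p = 0.201), with -0.70 at rest. Il12b, which encodes the p40 chain of IL-12, overlapped, at 11.7, 11.8 and 11.1 against 11.7, 11.4 and 10.98 (-0.19 ± 0.28). Tnf (-0.23 ± 0.24), Il10 (-0.35 ± 0.28) and Ifnb1 (-0.40 ± 0.36) overlapped too, and Il12a was without overlap save for DRKO CpG 1 (-0.30 ± 0.15). The list's median was -0.18 without DRKO CpG 3 and -0.53 without WT CpG 3. With the neutrophil level as a covariate it was 0.07, and 3 genes each way had an unadjusted p under 0.05. With Y-linked signal as a covariate it was -0.61, with 17 genes lower at that p and 9 called, against 1413 and 419 of all 13371 genes. Without the arrays that carry that signal it was -0.68. With the title series as a block 13 were lower and 5 called, against 988 and 136 of all genes.

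Among 21 chemokine genes none passed, and 9 (42.9%, against 5.83% of all genes), all lower, had an unadjusted p under 0.05 (median -0.41, and -0.30 at rest). Cxcl3, a ligand of Cxcr2 that attracts neutrophils, read 7.76, 7.60 and 6.31 in WT and 5.65, 5.57 and 3.99 in DRKO (-2.15 ± 0.46, adjusted p = 0.0776). It lay below the array median on DRKO CpG 3, so its difference may be bounded by background. Ccl22, a ligand of Ccr4 made by mature DCs, read 8.50, 8.39 and 8.22 against 7.99, 7.75 and 7.72 (-0.55 ± 0.13, adjusted p = 0.102). Cxcl13, which attracts B cells, differed by -0.73 ± 0.18. All 3 genes were lower on every DRKO array. Without DRKO CpG 3 the list's median was -0.18. With the neutrophil level as a covariate it was -0.10, with 3 genes lower and 1 higher at an unadjusted p under 0.05. With Y-linked signal as a covariate it was -0.60, with 12 lower and 6 called, against 1413 and 419 of all 13371 genes. Without the arrays that carry that signal it was -0.66.

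None of the 30 NF-kB targets and feedback genes passed, and 7 (23.3%, against 5.83% of all genes) were lower at an unadjusted p under 0.05, with a median of -0.21. With 1 CpG array left out 4 to 12 were lower at that p, against 574 to 974 of all genes. The list's median was -0.06 with the neutrophil level as a covariate and -0.25 with Y-linked signal as a covariate. Ikbke, a kinase of the interferon and NF-kB pathways, read 8.58, 8.93 and 8.40 in WT and 8.22, 7.54 and 6.76 in DRKO (-1.13 ± 0.31, adjusted p = 0.133). Of 34 genes of the Toll-like receptor pathway none passed, with 4 higher (11.8%, against 8.51% of all genes) and 3 lower (8.82%, against 5.83%) at an unadjusted p under 0.05, shares near those over all genes, and a median of 0.04. Tlr9 itself read 10.3, 9.95 and 10.5 in WT and 10.3, 9.83 and 10.2 in DRKO, which overlapped (-0.16 ± 0.17, adjusted p = 0.727). Ly96, the partner of Tlr4, differed by -0.75 ± 0.19 (adjusted p = 0.115). Among 20 complement genes, which include the targeted C3ar1 and C5ar1, none passed. At that p 5 were lower (25.0%, against 5.83% of all genes), both targeted genes among them. Only 1 was higher (5.0%, against 8.51%). The list's median was -0.35, and -0.02 without DRKO CpG 3. C5ar2, the second C5a receptor, read 6.26, 6.56 and 6.21 against 5.81, 5.83 and 5.89 (-0.50 ± 0.13, adjusted p = 0.115). Cfb, factor B of the alternative pathway, differed by -0.67 ± 0.28 and Hc, which encodes C5, by -0.37 ± 0.16.

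None of 27 genes of Gi-coupled receptor and cAMP signalling, the arm on which both missing receptors act, passed (median 0.15). At an unadjusted p under 0.05, 9 were higher (33.3%, against 8.51% of all genes) and 3 lower (11.1%, against 5.83%). With 1 CpG array left out the median ranged from 0.10 (without DRKO CpG 2) to 0.28 (without DRKO CpG 1). In these fits 6 to 10 were higher and 2 to 4 lower, against 801 to 1401 and 574 to 974 of all genes. The median was 0.08 within the first title series and 0.23 within the second. Adcy7, an adenylyl cyclase of leukocytes, read 7.03, 6.83 and 6.65 in WT and 7.33, 7.52 and 7.66 in DRKO (0.66 ± 0.13, adjusted p = 0.0643). Pde3b, a phosphodiesterase that degrades cAMP, differed by 0.55 ± 0.14 (adjusted p = 0.102). Creb5, a transcription factor of the CREB family, went the other way, 7.67, 7.46 and 7.93 against 6.93, 6.64 and 7.05 (-0.81 ± 0.14, adjusted p = 0.0621), as did the G protein subunit Gnai3 (-0.37 ± 0.10, adjusted p = 0.117). The genotypes did not overlap for these 4 genes. Of 27 MAP kinases and phosphatases Mapk14 passed, and 4 higher (14.8%) and 3 lower (11.1%) had an unadjusted p under 0.05 (median 0.04). Dusp6, the phosphatase of ERK, read 8.36, 8.30 and 8.05 against 8.64, 8.88 and 8.86 (0.56 ± 0.12, adjusted p = 0.0803).

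Of 21 markers of cDC1, the conventional DCs that cross-present antigen, none passed, 10 (47.6%, against 8.51% of all genes) were higher and 4 (against 5.83% of all genes) lower at an unadjusted p under 0.05, and the median was 0.31 after CpG and -0.19 at rest. Xcr1, the chemokine receptor that defines cDC1, read 5.23, 5.66 and 5.54 in WT and 5.97, 6.12 and 6.53 in DRKO (0.73 ± 0.16, adjusted p = 0.0834). Naaa, a lysosomal amidase, read 10.2, 9.87 and 9.82 against 10.7, 11.2 and 10.8 (0.97 ± 0.18, adjusted p = 0.0623). Rab7b differed by 0.92 ± 0.22. Ly75, a member of this list as well as of the costimulation list, was among the 4 lower genes (-0.60, adjusted p = 0.0686). The list's median difference between CpG and rest was -1.13 in WT and -0.52 in DRKO, values that share arrays with the genotype comparison. Leaving out 1 CpG array at a time gave 7 to 10 higher genes and medians from 0.23 to 0.47 (without WT CpG 3). The median was 0.12 with Y-linked signal as a covariate and 0.10 within the second title series. Of 22 cDC2 markers 5 (22.7%) were higher and 2 (9.09%) lower at that p (median 0.04), among them Cd209a, a C-type lectin, at 7.93, 7.60 and 7.80 against 8.05, 9.16 and 9.30 (1.06 ± 0.27, adjusted p = 0.113). Of 16 plasmacytoid DC markers 4 (25.0%) were higher and none lower (median 0.20). That median was 0.04 without WT CpG 3, 0.09 without DRKO CpG 1, 0.11 without DRKO CpG 2 and 0.34 without WT CpG 2, and it turned to -0.08 with Y-linked signal as a covariate. Of the 17 core markers of conventional DCs 4 (23.5%, against 8.51% of all genes) were higher and 3 (17.6%, against 5.83%) lower (median 0.07). Their differences ran from -0.43 to 0.53, with Itgax at 0.53 ± 0.13 (adjusted p = 0.105) and Flt3 at 0.39 ± 0.10 (adjusted p = 0.111). Ccr7, described with the costimulation list, is a member of this list too and was lower. None of these markers passed.

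**Figure D5:**
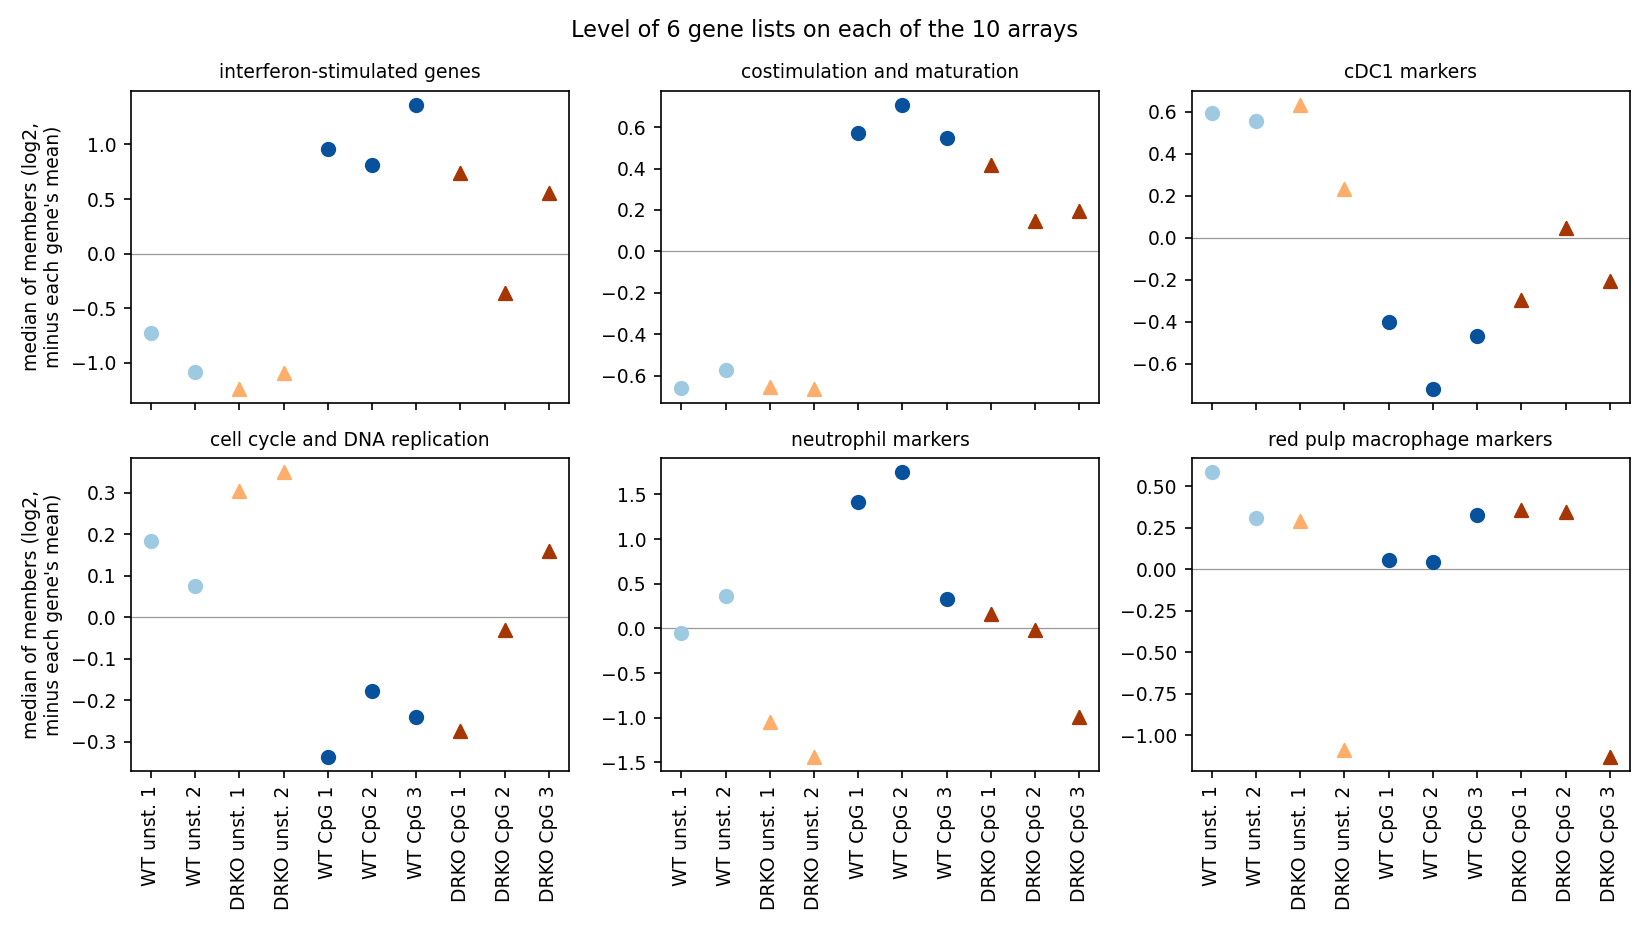
Median level of 6 gene lists on each of the 10 arrays (log2, each gene set against its mean over the 10 arrays; circles, WT; triangles, DRKO; light, unstimulated; dark, CpG), with a separate vertical scale per panel. The costimulation medians are 0.57, 0.71 and 0.55 on the WT CpG arrays and 0.42, 0.15 and 0.19 on the DRKO CpG arrays, and red pulp macrophage markers are low on DRKO CpG 3 and DRKO unstimulated 2.

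Cell cycle and DNA replication genes gave 9 higher (25.0%) and 2 lower of 36 at an unadjusted p under 0.05 and none passing (median 0.20, and 0.13 at rest). Differences over the list ran from -0.73 to 0.60, so the largest in size was negative. Mcm2, Mcm5, Mcm4 and Mcm7, subunits of the replicative helicase, differed by 0.60 ± 0.14, 0.58 ± 0.14, 0.43 ± 0.14 and 0.55 ± 0.19, and the adjusted p of Mcm2 was 0.0927. The count of higher genes was 2 without DRKO CpG 3, 4 without WT CpG 1 and 15 without DRKO CpG 1. Among MHC class I presentation genes 4 of 19 were lower (median -0.16, and -0.07 without WT CpG 3), and among MHC class II presentation genes 3 of 19 were higher (median 0.07), H2-DMa, a peptide editor, by 0.48 ± 0.15 (adjusted p = 0.195). Of 19 BCL2 family and cell death genes 5 were lower and 1 higher, with the death receptor gene Fas at 9.77, 10.04 and 8.99 against 8.82, 8.55 and 8.18 (-1.08 ± 0.25, adjusted p = 0.0907). Of 30 immediate-early and heat-shock genes 3 were higher and 1 lower, with Fosb, a subunit of AP-1, at 0.50 ± 0.10 (adjusted p = 0.0679). Of the 19 genes of glycolysis and glucose transport, Glo1 passed and 1 was lower without passing, Pfkfb3 (-0.39 ± 0.12). All counts in this paragraph other than Glo1 are at an unadjusted p under 0.05, against 8.51% of all genes higher and 5.83% lower.

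Each of the remaining lists held at most 3 such genes in a direction, with shares on both sides of those over all genes. They were oxidative phosphorylation (none higher and 1 lower of 22), cholesterol synthesis (2 and 2 of 19) and the unfolded protein response (1 and 1 of 23). Markers of other cells were those of B cells (1 and none of 19), plasma cells (1 and none of 10), T cells (2 and none of 15, 13.3% higher), NK cells (1 and 1 of 16), monocytes (3 and none of 20) and erythroid cells and platelets (1 and 1 of 11). Of 25 red pulp macrophage markers 1 was lower, the median was -0.39, and DRKO CpG 3 was the lowest of the 6 arrays for 23 genes. Without that array the median was 0.16, and within the first title series 0.22, so its direction rests on DRKO CpG 3. With Y-linked signal as a covariate it was -1.24, with 20 lower and 19 called, against 1413 and 419 of all 13371 genes. Of the 3 Y-linked genes and Xist, 2 were higher and Xist lower. The part of these cell types and of Y-linked signal in the gene differences was not tested.

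The number of called genes moved with single arrays and with how the arrays were grouped. Leaving out WT CpG 1, WT CpG 2 or DRKO CpG 2 left 2 called genes, Tarm1 and Gm15448, while leaving out DRKO CpG 1 gave 171 higher and 96 lower. With the 2 series of numbers in the sample titles as a block, which stand in for batches that the labels mention without assigning, 160 genes were higher and 136 lower, among them 7 of the 31 costimulation genes (all lower), 14 neutrophil markers, 2 interferon-stimulated genes, C3ar1 (adjusted p = 0.0246) and C5ar1 (adjusted p = 0.0243). The 16 genes had the same direction within the first title series (2 WT and 2 DRKO CpG arrays) and in the second (1 of each, with no test), from -3.45 (Gm15448) to 1.32 (Abca3) in the first and from -3.64 (Gm15448) to 1.36 (Mapk14) in the second.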

How the data were processed

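Gene expression was measured in 10 samples of splenic CD11c+ DCs, 1 Affymetrix Mouse Gene 2.0 ST array each. Each deposited value is a probe set's log2 intensity, made by the authors with RMA and Affymetrix Expression Console, per the submitters' processing notes; tool versions, genome build and whether arrays were normalized in 1 run: not given in the sources used here. RMA makes the arrays' distributions nearly equal (sorted values differed by at most 0.240), so differences are relative to the other genes of an array.

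Of 41345 probe sets, 23521 had 1 gene symbol, 1814 several and 16010 none, and those with 1 were used (22180 genes; for 1082 genes with several such probe sets, that of highest mean over 10 arrays). Of the 23521, 23328 matched the reference table (GRCm38.p6). A gene was tested where it exceeded the array median in at least 2 of 10 arrays (13371 genes). A model of 4 group means was fitted with limma 3.58.1 (lmFit and eBayes, 6 residual and 4.49 prior degrees of freedom) in R 4.3.3, with two-sided tests and Benjamini-Hochberg adjustment over all 13371 genes, and was tested on simulated data. The ± gives the standard error of a contrast. Figures were drawn with matplotlib 3.10.9.

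Named were C3ar1, C5ar1, the 16 called genes, the 20 genes with the smallest p, the 4 members of each of 33 lists with the smallest p, and Tlr9, Il12b, Il12a, Il6, Tnf, Il10, Ifnb1, Cd40, Cd80, Cd86, Ccr7, Cd274, Cfb, C5ar2 and Hc. Predicted genes were only counted unless said otherwise. The genes, lists and tests were chosen with earlier results of these data known. A list is described by its counts and median beside those of all genes. Over all genes, 574 to 974 were lower and 801 to 1401 higher at an unadjusted p under 0.05 with 1 CpG array left out. The counts were 988 lower and 1324 higher under the title-series block, 1413 and 1423 with Y-linked signal, and 663 and 770 with the neutrophil level. The results of 1 list are not reported here. Alternatives were the filter, normalization, eBayes settings, array weights, title series, covariates and leaving out each array. The list counts under the alternatives were chosen after seeing the data. Motifs (the ISRE core, a kB site and a PU.1 site) were searched on both strands of RefSeq windows of 250 bases.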

Additional observations from a re-analysis of the deposited data

Results flagged for a closer look

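The genotype difference of 8 named genes after CpG stood apart from that at rest. For Tarm1 the difference of the differences was -2.25 and passed the test of the interaction (adjusted p = 0.049), a call lost in 8 of 10 fits without 1 array and in 4 of 12 other settings. For the other 7, every DRKO array lay on one side of the WT arrays without stimulation and on the other side after CpG, and the interaction did not pass. Over all 13371 genes tested, 280 (2.09%) switched sides in this way and 166 (1.24%) did so with an unadjusted p under 0.05 after CpG, as these 7 of 152 named genes (4.61%) did. The named genes were in large part chosen for a small p after CpG. The interaction was 0.71 for the ERK phosphatase gene Dusp6, 0.99 for Bank1, a scaffold of B cell receptor signalling, and 0.54 for Tlr5, the flagellin receptor, with adjusted p of 0.761, 0.635 and 0.797. It was -0.70 for Birc2, a ubiquitin ligase of TNF receptor signalling, -0.51 for Dusp16, a phosphatase of JNK, -0.48 for Serpinb9b, a serine protease inhibitor, and -0.81 for Atp5g1, a subunit of ATP synthase, with adjusted p of 0.761, 0.797, 0.797 and 0.761. Bank1 read 10.08 and 10.03 in WT and 9.52 and 9.46 in DRKO at rest, and 8.57, 8.26 and 8.64 against 8.89, 9.07 and 8.79 after CpG. No explanation was tested.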

How the results depend on the processing

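The 16 called genes kept their direction in every setting run, and Gm15448 and Tarm1 their call in all 23 settings with a test, while the counts of calls depended on the setting. The reported counts were 7 higher and 9 lower. They were 0 and 3 in the 6 CpG arrays alone, 3 and 8 with no filter, 49 and 27 with a trend and robust eBayes, 75 and 50 with array weights, 160 and 136 blocked by title series, 19 and 71 within the first title series. They were 381 and 419 with Y-linked signal as a covariate, 341 and 382 without the arrays that carry it, 4 and 6 with the neutrophil level as a covariate, and 59 and 49 with the macrophage level. Leaving out 1 array gave 0 to 171 higher and 2 to 96 lower. At rest 1 gene was called, 2 under the title-series block, 23 within the first title series, 407 with Y-linked signal as a covariate (58 higher, 349 lower), 250 without the arrays that carry it, 6 with the macrophage level and 1 to 2 with 1 array left out. For the interaction 1 was called, 2 within the first title series, 0 to 1 with 1 array left out, and 0 under the block, after quantile normalization, without the arrays that carry Y-linked signal and with the neutrophil level. The arrays with Y-linked signal are all DRKO, and without them each DRKO group holds 1 array. Within DRKO, the arrays with this signal are those of the first title series. DRKO CpG 3 and DRKO unstimulated 2, without it, are those of the second. Y-linked signal and title series therefore cannot be told apart within DRKO. The cause was not tested. No paired analysis was possible because the labels give the groups no shared replicate numbers.

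Single genes that did not pass changed sign in some settings. With the neutrophil level as a covariate the differences were 0.52 for Trem1, -0.12 for Cd4, 0.30 for Cd14, 0.027 for Marco, 0.0074 for Il12a, 0.028 for Pf4, -0.27 for H2-Oa, 0.015 for Gpr137b, -0.077 for Sdhb, 0.16 for Timd4, 0.59 for Ncr1, 0.38 for Il10, 0.73 for Ifnb1, 0.12 for Cd8a, 0.19 for Tnf and 0.39 for Il12b. Without the arrays that carry Y-linked signal they were 0.0053 for Xist, -0.14 for Uty, -0.72 for Eif2s3y, -0.16 for Klrg1 and 0.057 for Cd80, and with that signal as a covariate -0.53 for Eif2s3y, -0.084 for Klrg1 and 0.011 for Cd80. Trem1 is part of the neutrophil level and Eif2s3y of the Y-linked signal, so their changes with that covariate come in part from their own values. With 1 array left out Tnf ranged from -0.48 (without DRKO CpG 1) to 0.0042 (without DRKO CpG 3). Genes near the array median may be near background.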

Other observations

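Further down the ranking, past the 20 smallest p-values, lay genes of other functions, chosen after their values were seen, none of which passed after CpG (all adjusted p between 0.0572 and 0.0623). Prr5, a subunit of the mTORC2 complex, read 6.02, 6.31 and 6.36 in WT and 6.90, 7.77 and 8.05 in DRKO (a difference of 1.34). Pik3ip1, an inhibitor of PI3K, read 7.12, 7.08 and 6.85 against 7.72, 7.55 and 7.80 (0.67), and Ddit4, an inhibitor of mTORC1, 7.27, 7.43 and 7.27 against 8.19, 7.85 and 7.94 (0.67). Il6ra, the IL-6 receptor chain, read 9.81, 9.43 and 9.66 against 10.2, 10.7 and 10.4 (0.76). Fli1, an ETS family transcription factor, differed by 0.94 and Mycl, a transcription factor of DCs, by 0.85. Lower in DRKO were Nox1, a superoxide-producing oxidase, at 6.29, 6.19 and 6.78 against 5.50, 4.76 and 5.49 (-1.17), and Nupr1, a stress-induced nuclear protein, at 8.51, 8.52 and 8.26 against 7.86, 7.35 and 7.44 (-0.88). All of these had DRKO and WT values that did not overlap, as did 2566 of all 13371 genes (19.2%). They were picked among small p-values, so the lack of overlap adds no support.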
